A study of Homo sapiens with 36 samples.

Results

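The EGR immediate early genes EGR1, EGR2 and EGR3 and the corepressor genes NAB1 and NAB2 were followed in 36 RNA sequencing libraries made from 4 human lung cancer cell lines under 3 treatments. The 5 genes were taken by name from the 66366 gene entries of each library. EGR1 was chosen because its treatment differences in these libraries were already known, so they are given as values with no test. The other 4 genes were added as its relatives and corepressors. They too were chosen with earlier results of these data known, so their tests are not independent of that choice.

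All 4 lines are established NSCLC (non-small cell lung cancer) lines, and each stands for a genotype and a cell background at once. EGFR is mutant in 3 of them: H3255 has L858R, H1975 has both L858R and T790M, and H820 has T790M beside a deletion in exon 19. In A549 EGFR is wild type. Each line received MinE07, an aptamer (a nucleic acid whose fold lets it bind a target) directed at EGFR, C36, a control aptamer in an extended form, or vehicle, which was DPBS with magnesium. Aptamers were given at 3 µM, every treatment lasted 24 h, and there were 3 libraries per group and 12 groups, described by the submitters as independent experiments. All groups were in 1% serum during treatment, in DMEM for A549 and in RPMI for the other lines, so medium and line cannot be told apart for A549. The treatment comparisons asked which transcripts differ with an aptamer against EGFR, beyond a control aptamer and beyond vehicle.

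EGR1, EGR2 and EGR3 encode zinc finger transcription factors that are switched on within minutes of growth factor stimulation, without new protein synthesis. EGFR signals through RAS, MEK and ERK to ELK proteins, which act with serum response factor (SRF) at CArG boxes in front of EGR1 and other immediate early genes. EGR proteins then bind GC-rich sites in their target genes, and NAB1 and NAB2 bind EGR1, EGR2 and EGR3 and repress their activity. NAB2 is itself known as a gene that EGR proteins induce, which makes it part of a feedback loop.

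The windows that hold these motifs are shown first, since EGR1 is known to be driven by SRF and NAB2 to be induced by EGR proteins. Of the 3 windows of EGR2, only that of the third start site holds a CArG box. Of the 3 windows of NAB1, only those of the first and second start sites hold an EGR site. Sequences are from RefSeq on GRCh38.p14, and 4 of the 5 genes had an entry. They are written 5′ to 3′ on the gene's strand, with motif matches in capitals, and a window holds the 250 bases before a start site, so position -1 is the base before the start. EGR1 (chr5:138465229-138465478, plus strand) holds CArG boxes at -105 to -96 and at -83 to -74. EGR2 at the third of its start sites (chr10:62816367-62816616, minus strand) holds the second of those 2 CArG boxes letter for letter, at -71 to -62. NAB1 at the first of its start sites (chr2:190648645-190648894, plus strand) holds 2 overlapping reverse-strand matches to the EGR site GCGGGGGCG, at -42 to -34 and -36 to -28.
EGR1: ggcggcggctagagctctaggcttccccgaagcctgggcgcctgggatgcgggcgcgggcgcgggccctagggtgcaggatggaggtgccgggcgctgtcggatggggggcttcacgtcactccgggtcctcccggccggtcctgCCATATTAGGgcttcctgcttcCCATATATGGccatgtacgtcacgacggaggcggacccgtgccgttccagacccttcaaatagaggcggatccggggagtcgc
EGR2: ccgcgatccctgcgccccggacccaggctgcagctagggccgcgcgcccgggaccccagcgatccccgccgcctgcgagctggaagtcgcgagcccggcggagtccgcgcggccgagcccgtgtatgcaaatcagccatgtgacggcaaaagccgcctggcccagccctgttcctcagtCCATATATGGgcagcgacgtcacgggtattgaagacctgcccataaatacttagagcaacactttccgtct
NAB1: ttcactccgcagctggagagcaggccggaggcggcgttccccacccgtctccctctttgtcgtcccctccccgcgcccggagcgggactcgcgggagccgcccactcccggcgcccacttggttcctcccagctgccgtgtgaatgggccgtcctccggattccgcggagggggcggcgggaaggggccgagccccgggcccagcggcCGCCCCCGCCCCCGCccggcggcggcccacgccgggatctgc

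For NAB2 and for the NAB1 start site that follows, annotated exons overlap the window, and the EGR site is shown with its flanks alone. That NAB1 window also holds the matches given above for the first start site, here at -230 to -222 and -224 to -216. NAB2 (chr12:57089042-57089070, plus strand) holds GCGGGGGCG at -62 to -54, and NAB1 (chr2:190648898-190648926, plus strand) holds GCGTGGGCG at -175 to -167 from the second start site.
NAB2: tgtgcgtcctGCGGGGGCGgaggcgcgga
NAB1, second start site: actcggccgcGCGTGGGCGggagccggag

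Both strands of 35116 windows from 27305 genes were searched for the CArG box (CC, a run of A or T, then GG) and for the EGR sites GCGTGGGCG and GCGGGGGCG. A CArG box was in 407 windows (1.16%), and 2 or more, as in EGR1, were in 11 windows (0.0313%). GCGTGGGCG was in 0.72% of the windows, GCGGGGGCG in 4.72%, and either one in 1885 windows (5.37%). These are letter matches and not measured binding sites.

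In all 4 lines EGR1 RNA stood lower under MinE07 than under C36, with a ratio of means between 0.493 and 0.655. Against vehicle the lines differed in direction. The ratio of MinE07 to vehicle was 0.618 in H3255, 0.855 in H1975 and 0.472 in H820, but 1.45 in A549. C36 itself stood above vehicle in H3255, H1975 and A549, and in A549 it was 2.22 times vehicle. Levels are in FPKM (fragment counts scaled by gene length and library size), and differences and their standard errors (SE) are on the log2(FPKM + 0.5) scale.

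In H3255 the 3 MinE07 libraries held 9.95, 11.5 and 9.86 FPKM of EGR1 (10.4 ± 0.914, SD, n = 3). The C36 libraries held 18.9, 21.2 and 20.2 FPKM (20.1 ± 1.19), and the vehicle libraries 16.5, 16.9 and 17.2 FPKM (16.9 ± 0.355). No library of any group overlapped another group, with MinE07 lowest and C36 highest. MinE07 differed from C36 by -0.92 (SE 0.059) and from vehicle by -0.67, and C36 from vehicle by 0.24. From the lowest, the difference between MinE07 and C36 ranked 74 of the 13429 genes tested in that line. EGR1 was chosen with these differences known, so its ranks and SE, here and in the other lines, carry no test.

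In H1975 EGR1 was at 6.49, 7.32 and 7.16 FPKM with MinE07 (6.99 ± 0.444, SD, n = 3). It was at 11.04, 10.95 and 10.87 FPKM with C36 (10.95 ± 0.0845) and at 7.90, 8.71 and 7.90 FPKM with vehicle (8.17 ± 0.466). The 3 groups again did not overlap, but vehicle sat nearer to MinE07 than to C36. The difference was -0.61 (SE 0.051) between MinE07 and C36, which ranked 89 of 14183 from the lowest. It was -0.21 between MinE07 and vehicle and 0.40 between C36 and vehicle.

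H820 had the lowest EGR1 levels. The MinE07 libraries held 1.01, 1.27 and 1.18 FPKM (1.15 ± 0.134, SD, n = 3), the C36 libraries 2.30, 2.42 and 2.31 FPKM (2.34 ± 0.0646), and the vehicle libraries 2.55, 2.32 and 2.47 FPKM (2.45 ± 0.118). C36 and vehicle overlapped, and all 3 MinE07 libraries lay below both. The difference was -0.78 (SE 0.064) against C36, which ranked 61 of 13753 from the lowest, and -0.84 against vehicle. C36 and vehicle differed by -0.05. At such low FPKM the pseudocount matters: with 0.1 in place of 0.5 the difference against C36 was -0.97, and with 1 it was -0.63.

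In A549 the order of the groups was another one. EGR1 was at 4.68, 4.17 and 3.94 FPKM with MinE07 (4.26 ± 0.377, SD, n = 3), at 5.79, 6.71 and 7.03 FPKM with C36 (6.51 ± 0.648), and at 3.21, 2.81 and 2.78 FPKM with vehicle (2.93 ± 0.238). Vehicle was lowest, MinE07 lay between and C36 was highest, with no overlap. C36 differed from vehicle by 1.03, which ranked 46 of 13425 from the highest, and MinE07 differed from vehicle by 0.47, which ranked 101. MinE07 differed from C36 by -0.56 (SE 0.083), a rank of 86 from the lowest.

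**Figure D1:**
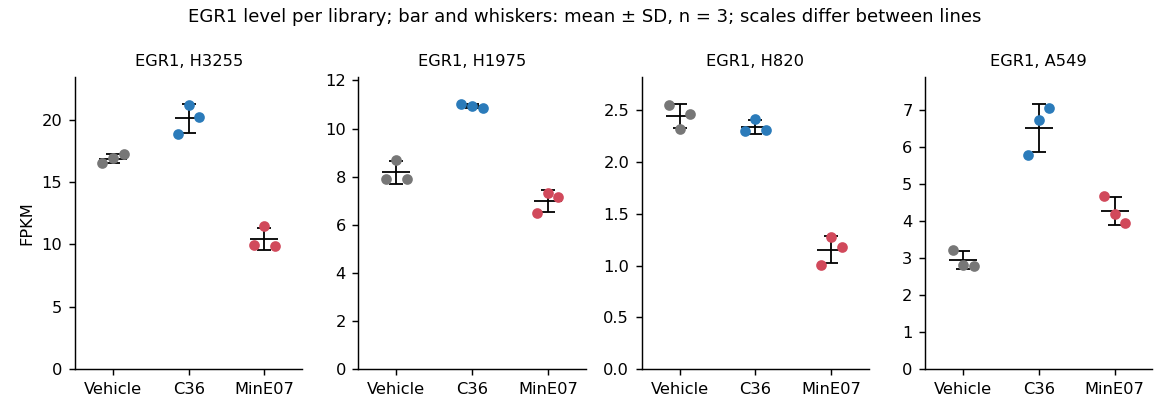
EGR1 level in FPKM (y axis, from 0, its own scale in each panel) by treatment (x axis) in H3255, H1975, H820 and A549; points are libraries, and the bar and whiskers are the mean and SD of 3. MinE07 lies below C36 in each panel, and vehicle is the lowest group in A549 only.

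The libraries of a line share their controls between comparisons, so the 3 differences within a line are not independent of each other. Since EGR1 was selected on these contrasts, the share of all tested genes that passed an adjusted p of 0.05 in limma is given only as the setting. For MinE07 against C36 it was 36.7% in H3255 and 19.9% in H1975, but 0.0364% in H820 (0.0145% lower, 0.0218% higher) and 0% in A549. For MinE07 against vehicle it was 38.6%, 23.7%, 3.02% and 0.216% in the same order of lines. For C36 against vehicle the shares lower and higher were 0.141% and 0.164% in H3255, 0.190% and 0.0423% in H1975, 1.29% and 1.56% in H820, and 2.38% and 3.62% in A549.

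By libraries that did not overlap, EGR1 left out since it was chosen on these contrasts, MinE07 was below C36 for 2, 1, 3 and 0 of the other 4 genes in the lines in that order, beside 27.1%, 21.6%, 6.78% and 10.1% of the tested genes. In the same order it was above C36 for 1, 0, 0 and 1 of them, beside 22.8%, 18.7%, 10.3% and 12.5%. Against vehicle MinE07 was below for 2, 1, 3 and 0 of the 4, beside 21.9%, 20.5%, 9.18% and 7.05%, and above for 1, 1, 0 and 2, beside 27.1%, 17.9%, 14.4% and 11.3%. C36 was below vehicle for 0, 0, 1 and 0, beside 7.32%, 10.1%, 10.9% and 12.4%, and above it for 0, 2, 0 and 2, beside 17.1%, 10.4%, 13.6% and 17.4%. EGR2 and EGR3 are in these counts but, being low, not among the tested genes.

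EGR2, which is also known for its part in myelination, and EGR3, a close relative of EGR1, were at low levels in every library. EGR2 ran from 0.0214 to 0.547 FPKM and EGR3 from 0.0190 to 0.399 FPKM, and neither reached the mean of 1 FPKM required for testing in any line. The files give no read counts, so the counting error at these levels is unknown. Their values are described below, and adjusted p-values for them come from the fit of each line without the filter on low genes.

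EGR3 was lower with MinE07 than with either control in the 3 lines with mutant EGFR. In H3255 it was at 0.0636, 0.0403 and 0.0308 FPKM with MinE07, at 0.241, 0.164 and 0.136 FPKM with C36 and at 0.124, 0.136 and 0.146 FPKM with vehicle. All MinE07 libraries lay below all others, and without the filter the adjusted p in limma was 0.0157 against C36 and 0.0598 against vehicle, where 10.6% and 11.6% of all genes were called. In H1975 EGR3 was at 0.225, 0.198 and 0.194 FPKM with MinE07, at 0.314, 0.291 and 0.399 FPKM with C36 and at 0.340, 0.349 and 0.374 FPKM with vehicle. Here too MinE07 lay apart below both, and the adjusted p without the filter was 0.0703 against C36 and 0.0398 against vehicle, beside 4.28% and 5.10% of all genes.

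In H820 EGR3 was at 0.0449, 0.0293 and 0.0323 FPKM with MinE07, at 0.0704, 0.0967 and 0.0609 FPKM with C36 and at 0.102, 0.178 and 0.1496 FPKM with vehicle. The 3 groups did not overlap, yet no EGR3 difference in H820 passed the test without the filter, with adjusted p of 0.803 for MinE07 against C36, 0.116 against vehicle and 0.333 for C36 against vehicle. In A549 EGR3 averaged 0.0383 FPKM with MinE07, 0.0499 FPKM with C36 and 0.0255 FPKM with vehicle, and all 3 groups overlapped. The difference between MinE07 and C36 in H3255, taken less that in A549, was -0.29, with an adjusted p of 0.00883 in the fit of all 36 libraries without the filter, where 7.78% of genes passed. The other 5 pairs of lines gave adjusted p of 0.0840 to 0.891 for EGR3.

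EGR2 did not share this pattern in every line. H1975 had the highest level, with means of 0.478 ± 0.0594 FPKM with MinE07, 0.486 ± 0.0448 FPKM with C36 and 0.417 ± 0.0399 FPKM with vehicle (SD, n = 3). Both aptamer groups lay just above vehicle there and overlapped each other. In H820 the MinE07 libraries, at 0.0412, 0.0297 and 0.0214 FPKM, lay below those of C36, at 0.0829, 0.126 and 0.0759 FPKM, and of vehicle, at 0.116, 0.112 and 0.116 FPKM. In A549 EGR2 was at 0.154, 0.119 and 0.0990 FPKM with MinE07 and at 0.155, 0.126 and 0.224 FPKM with C36, all above the vehicle libraries at 0.0510, 0.0817 and 0.0801 FPKM. In H3255 the groups overlapped, with means of 0.0395, 0.0414 and 0.0661 FPKM for MinE07, C36 and vehicle. No EGR2 difference between treatments passed the test without the filter, and the lowest adjusted p was 0.106, for MinE07 against vehicle in H820.

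**Figure D2:**
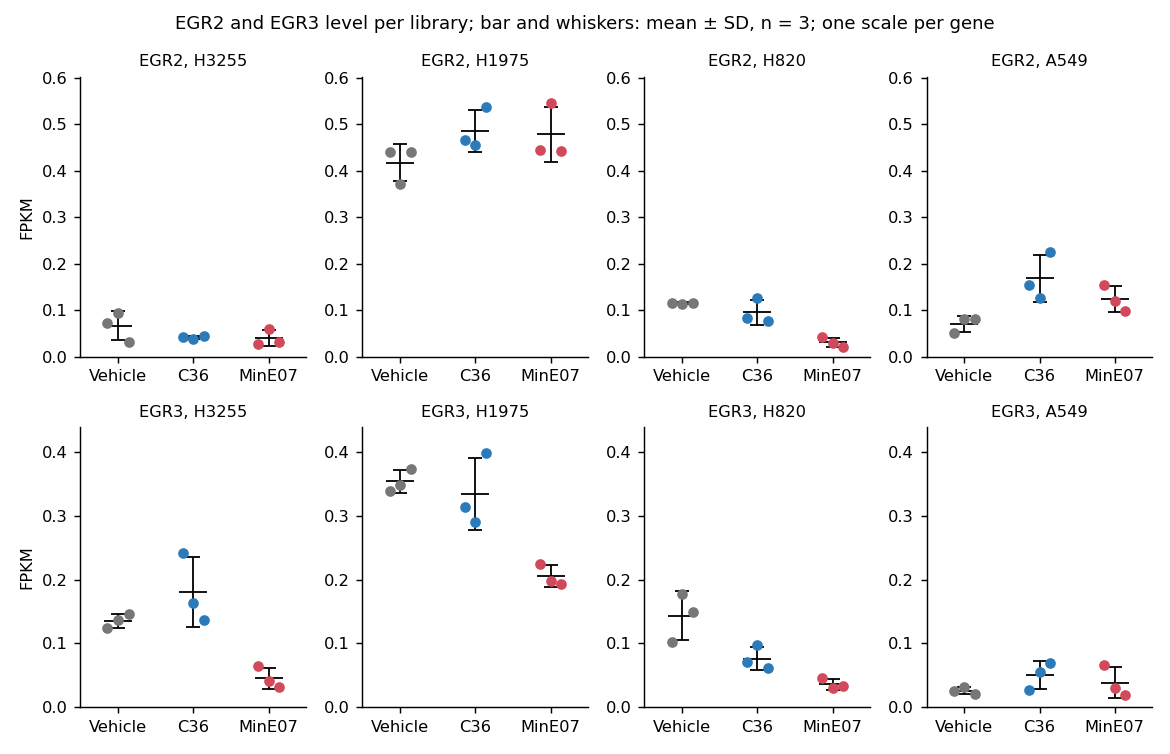
EGR2 (upper row) and EGR3 (lower row) in FPKM (y axis, 1 scale per gene, from 0) by treatment (x axis) in the 4 lines; points are libraries, bar and whiskers the mean and SD of 3. EGR3 with MinE07 sits lowest in H3255, H1975 and H820, and EGR2 is highest in H1975.

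NAB2, the corepressor that EGR proteins are known to induce, fell with MinE07 in H3255. The MinE07 libraries were at 21.5, 23.6 and 23.5 FPKM (22.8 ± 1.15, SD, n = 3), those of C36 at 30.3, 32.0 and 32.1 FPKM (31.4 ± 1.01) and those of vehicle at 30.5, 30.0 and 32.8 FPKM (31.1 ± 1.47). MinE07 lay apart below both controls, which overlapped. The difference was -0.45 (SE 0.046, adjusted p = 4.59e-05 in limma, 2.21e-07 to 0.00117 over its alternatives) against C36 and -0.44 (adjusted p = 5.25e-05) against vehicle. C36 and vehicle differed by 0.02 (adjusted p = 0.904).

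In H820 NAB2 was at 4.59, 4.85 and 4.26 FPKM with MinE07, at 5.62, 5.82 and 5.79 FPKM with C36 and at 5.52, 5.42 and 5.62 FPKM with vehicle. MinE07 again lay below both controls with no overlap. It fell by 0.25 on the log2 scale against vehicle (adjusted p = 0.0176), and the difference of -0.30 against C36 had an adjusted p of 0.0939. The size of the difference against vehicle stayed between -0.29 and -0.21 when a library of either group was left out, but the call was lost without MinE07 replicate 3 (adjusted p = 0.0518), without vehicle replicate 1 (0.0591), 2 (0.0538) or 3 (0.0563), and without the filter (0.0908), with a range of 0.00798 to 0.0908 over its alternatives. The difference against C36 passed in the fit of all 36 libraries (adjusted p = 0.0180, where 0.130% of genes passed).

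In H1975 NAB2 was at 15.3, 13.8 and 13.2 FPKM with MinE07, at 15.6, 15.1 and 16.2 FPKM with C36 and at 13.9, 13.3 and 13.8 FPKM with vehicle. MinE07 overlapped both controls, and C36 lay apart above vehicle. The adjusted p was 0.0673 for MinE07 against C36 (-0.15), 0.654 for MinE07 against vehicle (0.04) and 0.147 for C36 against vehicle (0.18). Without MinE07 replicate 1, the highest of the 3, the difference against C36 was -0.21 with an adjusted p of 0.0128, the lowest of a range that reached 0.215.

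In A549 NAB2 was at 5.88, 6.37 and 5.30 FPKM with MinE07, at 5.84, 6.71 and 6.11 FPKM with C36 and at 5.30, 5.57 and 5.23 FPKM with vehicle. The MinE07 libraries overlapped both other groups, and C36 lay just above vehicle. The difference of 0.19 between C36 and vehicle had an adjusted p of 0.121, and of 0.0178 in the fit of all 36 libraries, where 15.5% of genes passed. The other 2 differences had adjusted p of 0.681 and 0.503.

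The 3′ ends of NAB2 and STAT6, which lies on the opposite strand, overlap by 69 bases in GENCODE release 29 (GRCh38). NAB2 spans chr12:57088894-57095476 and STAT6 chr12:57095408-57132139. The libraries were made with a stranded kit, but the strand setting of the counting is not given in the sources used here, so reads in the overlap cannot be told apart. STAT6 averaged 18.4 FPKM with MinE07, 14.3 FPKM with C36 and 13.1 FPKM with vehicle in H3255, so MinE07 was its highest group, whereas for NAB2 MinE07 was the lowest.

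NAB1, the other corepressor, passed no test between treatments in any line. Its means with MinE07, C36 and vehicle were 4.88, 4.65 and 4.51 FPKM in H3255, 2.00, 2.15 and 2.04 FPKM in H1975, 4.01, 4.23 and 4.17 FPKM in H820, and 11.1, 10.1 and 10.1 FPKM in A549. Of 12 comparisons in limma, 0 passed after adjustment and 2 had an unadjusted p under 0.05; the adjusted p ran from 0.106 to 0.998 and reached no lower than 0.0687 under any alternative. In A549 the 3 MinE07 libraries, at 10.98, 10.85 and 11.54 FPKM, lay above those of C36, at 10.2, 9.78 and 10.4 FPKM, and above those of vehicle, at 10.7, 9.79 and 9.87 FPKM. In H3255 the MinE07 libraries also lay above the others, but the lowest of them (4.801 FPKM) was close to the highest of C36 (4.796 FPKM). Such a gap is common, since in H3255 22.8% of the tested genes lay apart above C36.

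**Figure D3:**
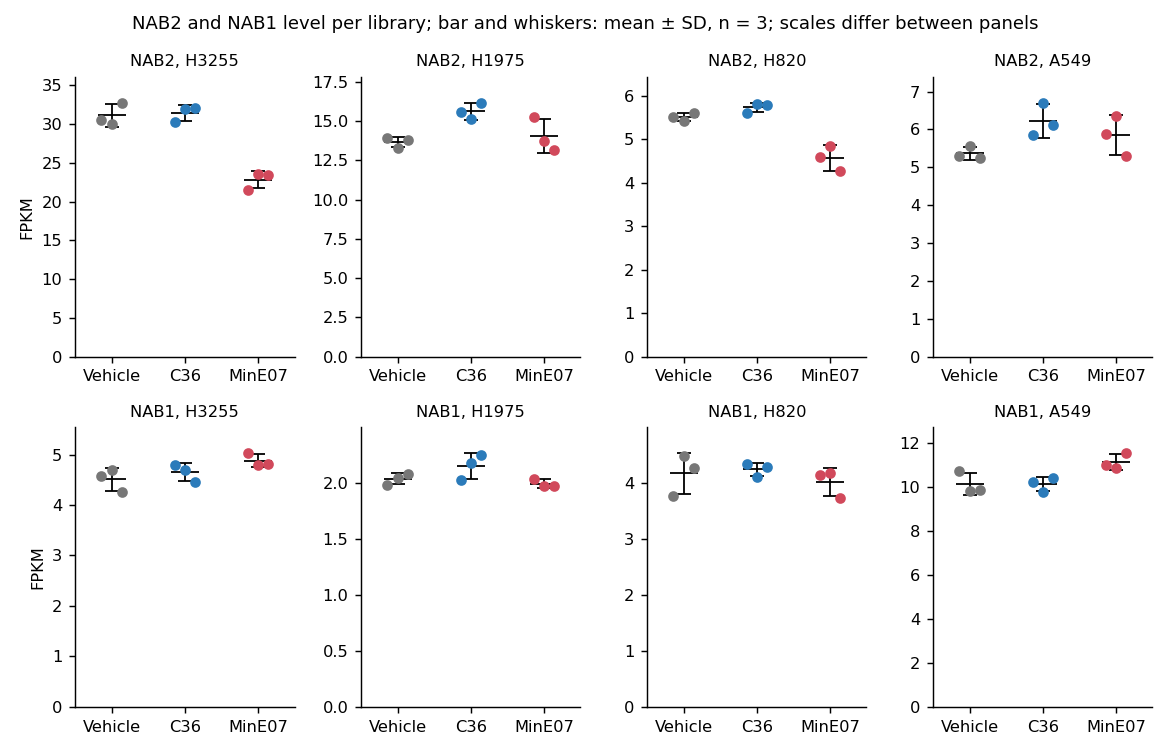
NAB2 and NAB1 in FPKM (y axis, from 0) by treatment (x axis) in the 4 lines; points are libraries, bar and whiskers the mean and SD of 3. NAB2 with MinE07 lies apart below both controls in H3255 and H820, and NAB1 differs far more between lines than between treatments.

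Whether the difference between MinE07 and C36 itself differed between lines was tested in 1 fit of all 36 libraries. The NAB2 difference was more negative in H3255 than in A549 and H1975, with -0.37 for the difference in H3255 less that in A549 (adjusted p = 0.000829), and -0.30 for H3255 less H1975 (adjusted p = 0.00785). Of all genes, 25.2% and 15.2% passed in these comparisons. The other 4 pairs of lines did not pass for NAB2, with adjusted p from 0.204 to 0.656. H3255 and H820 were among them (-0.15, adjusted p = 0.204). For NAB1 1 of 6 pairs passed, H1975 against A549 (-0.22, adjusted p = 0.0387, beside 12.6% of all genes). That call was lost under 11 of 18 alternatives, up to an adjusted p of 0.1003.

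**Figure D4:**
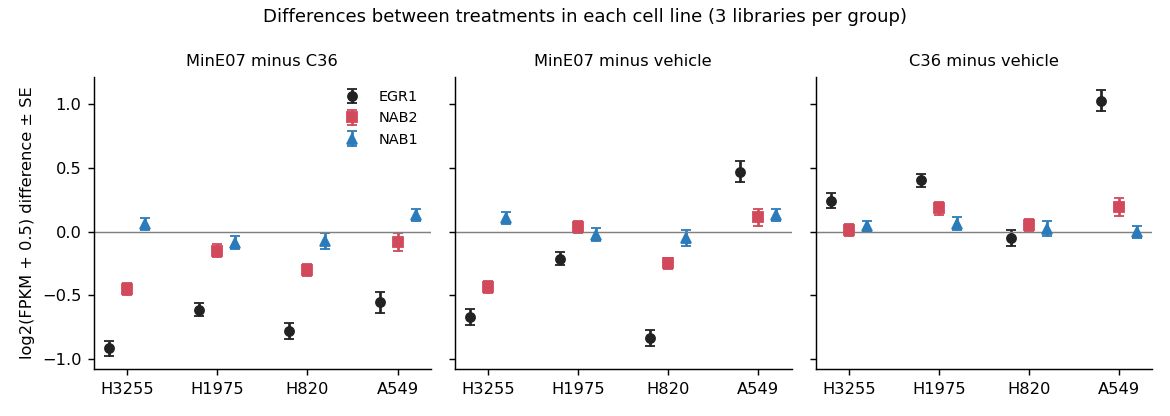
Difference on the log2(FPKM + 0.5) scale (y axis) with its SE for EGR1, NAB2 and NAB1 in each line (x axis), for MinE07 minus C36, MinE07 minus vehicle and C36 minus vehicle. EGR1 lies below 0 in every line in the first panel, and in A549 above 0 in the other panels; NAB2 lies nearer to 0 than EGR1 in each line of the first panel.

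In the vehicle libraries EGR1 and NAB2 were highest in H3255 and next in H1975, while NAB1 was highest in A549. EGR1 was highest in H3255 (16.9 FPKM), then H1975 (8.17), A549 (2.93) and H820 (2.45), and all 6 pairs passed in limma. The closest pair, H820 and A549, differed by -0.22 (adjusted p = 0.00506, 0.00174 to 0.0485 over its alternatives). NAB2 was at 31.1 FPKM in H3255 and 13.7 FPKM in H1975, while H820 (5.52) and A549 (5.37) did not differ beyond their spread (0.04, adjusted p = 0.536); the other 5 pairs passed. NAB1 had the reverse extreme, with 10.1 FPKM in A549, 4.51 in H3255, 4.17 in H820 and 2.04 in H1975. H3255 and H820 were the 1 pair that did not pass for NAB1 (0.10, adjusted p = 0.0516), and it passed without H3255 vehicle replicate 3 (0.0182) or without H820 vehicle replicate 2 (0.00964) or 3 (0.0481). Such differences were common, since 83.7% to 87.1% of the 14572 genes tested differed between the vehicle libraries of a pair.

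Among the low genes, without the filter, EGR2 in vehicle was higher in H1975 than in each other line, with the weakest call against H820 (0.58, adjusted p = 1.30e-10). The other 3 pairs did not pass for EGR2. EGR3 was also highest in H1975 (0.354 FPKM), did not differ between H820 (0.143) and H3255 (0.135), and was lower in A549 (0.0255) than in each other line. Between 44.5% and 46.0% of genes passed in these pairs without the filter. The line with the highest EGR1 was thus not the line with the highest EGR2 and EGR3.

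The genes whose pattern was most like that of EGR1 were ranked by Pearson correlation of log2(FPKM + 0.5), less the mean of each line, over the 36 libraries. Among 10993 genes with a mean of at least 1 FPKM in every line, NAB2 ranked 1 with r = 0.824, followed by TOP1 (topoisomerase I, 0.784), GTF2F1 (a subunit of the general transcription factor TFIIF, 0.770), FOSL1 (an AP-1 subunit, 0.756) and ARHGEF2 (0.748). Within lines the r of NAB2 with EGR1 was 0.955 in H3255, 0.932 in H820, 0.757 in A549 and 0.592 in H1975. NAB1 ranked 5689 with r = 0.028. These values describe libraries that share treatment groups and differ in depth. EGR1 was chosen with its treatment differences known, and NAB2 with earlier results of these data known, so the correlations carry no test.

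Genes around EGR1 were taken in 4 lists of 43 genes in all: SRF and its cofactors, other immediate early genes, genes known as EGR1 targets, and relatives of EGR1 with the CHD chromatin remodellers that NAB proteins recruit. The lists were drawn up with earlier results of these data known, so their counts are a description. In H3255, 24 of 37 tested genes fell and 3 rose with MinE07 against C36, with a median difference of -0.22 against -0.01 over all genes, of which 20.0% fell and 16.6% rose. In H1975, 13 of 37 fell and 1 rose (median -0.05), where 11.1% of all genes fell and 8.88% rose. In limma 0 of 37 genes passed in H820 and 0 of 38 in A549, beside 0.0364% and 0% of all genes. In these lines 3 and 12 list genes had an unadjusted p under 0.05, and the medians were -0.01 and -0.07. The fit of all 36 libraries called 1 list gene in A549, beside 1.58% of all genes.

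SRF and its cofactors bring the signal of ERK and of actin to immediate early genes. In H3255 3 of 6 fell, and SRF itself moved the most, from 13.3 ± 0.264 FPKM with C36 to 11.3 ± 0.301 FPKM with MinE07 (-0.22, adjusted p = 0.00130). In H1975 1 of 6 fell, ELK1, an ERK substrate that partners SRF, from 26.7 to 24.2 FPKM (-0.14, adjusted p = 0.0138). Against vehicle SRF fell by 0.13 on the log2 scale in H3255 (adjusted p = 0.0207), but ELK1 in H1975, at 24.3 FPKM with vehicle, did not pass (-0.0065, adjusted p = 0.913).

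Among the other immediate early genes, 12 of 17 fell and 1 rose in H3255 (median -0.27). ATF3, a stress-induced bZIP factor, fell the most, from 1.82 ± 0.157 to 0.700 ± 0.0671 FPKM (-0.95, adjusted p = 3.51e-05), and BTG2, an antiproliferative gene, was the one that rose, from 4.31 ± 0.101 to 5.20 ± 0.566 FPKM (0.24, adjusted p = 0.0110). Against vehicle the ATF3 difference was smaller (-0.34, adjusted p = 0.0149) and C36 stood above vehicle (0.61, adjusted p = 0.0383), and BTG2 did not pass (4.89 FPKM with vehicle, 0.08, adjusted p = 0.355). In H1975 8 of 16 fell and 0 rose. FOSL1 fell the most there, from 109 ± 4.99 to 74.5 ± 4.67 FPKM (-0.55, adjusted p = 0.000122; -0.48 against vehicle, adjusted p = 0.000226). Chosen after their values were seen, FOS and JUN, which form AP-1, fell in both lines: FOS from 5.86 to 3.37 FPKM in H3255 and from 1.55 to 1.12 FPKM in H1975, and JUN from 21.4 to 14.6 FPKM and from 20.0 to 17.1 FPKM. Against vehicle both fell in H3255 and JUN fell in H1975 (adjusted p = 0.0293), where FOS did not pass (adjusted p = 0.308). In H820 JUN instead stood above vehicle with MinE07 (38.1 and 31.4 FPKM, 0.27, adjusted p = 0.00188) and with C36 (0.25, adjusted p = 0.00451). There MinE07 and C36 did not differ for JUN (0.03, adjusted p = 0.798). JUNB, also named after its values were seen, fell against vehicle in H3255 (-0.25, adjusted p = 0.0109) but rose in H1975 (0.26, adjusted p = 0.00397).

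Of the EGR1 targets, 8 of 12 fell and 1 rose in H3255 (median -0.29), and 4 of 13 fell in H1975. F3, which encodes tissue factor, fell the most in both lines, from 28.0 ± 0.916 to 14.1 ± 0.347 FPKM in H3255 (-0.97, adjusted p = 2.89e-07) and from 15.1 ± 0.569 to 11.7 ± 1.20 FPKM in H1975 (-0.36, adjusted p = 0.00353). PDGFA, a growth factor gene, rose in H3255 from 3.54 ± 0.393 to 4.66 ± 0.0907 FPKM (0.36, adjusted p = 0.00192). The remodellers moved apart in H3255, where CHD4 fell from 31.9 to 28.2 FPKM (-0.17, adjusted p = 0.000946) and CHD3 rose from 23.7 to 27.4 FPKM (0.21, adjusted p = 0.000399). CHD3 also rose in H1975 (0.12, adjusted p = 0.0154). Against vehicle F3 and CHD3 passed in the same direction in both lines, and PDGFA and CHD4 in H3255; F3 fell by 1.19 on the log2 scale in H3255.

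**Figure D5:**
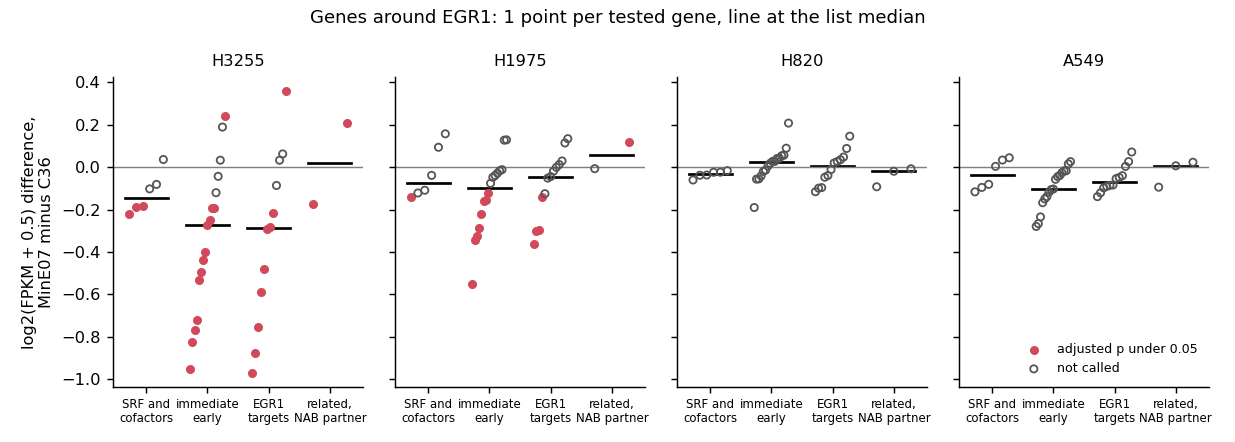
Difference between MinE07 and C36 on the log2(FPKM + 0.5) scale (y axis) for each tested gene of the 4 lists (x axis) in each line; filled points passed an adjusted p of 0.05, open points did not, and the line is the list's median. Most filled points of H3255 and H1975 lie below 0. H820 and A549 have none, where 0.0364% and 0% of all tested genes passed.

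Against vehicle, with MinE07, 21 of 37 list genes fell and 5 rose in H3255 (median -0.15), beside 17.2% of all genes lower and 21.4% higher. In H1975 9 of 37 fell and 5 rose (median -0.05), beside 12.9% and 10.8%. In H820 0 fell and 5 rose, beside 1.03% and 1.99%. In A549 0 of 38 passed in limma for MinE07, beside 0.0968% of all genes lower and 0.119% higher, with 12 at an unadjusted p under 0.05. The fit of all 36 libraries called 6, beside 4.52% of all genes, and 3 were called without vehicle replicate 1.

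C36 against vehicle moved 10 list genes in A549, 9 up and 1 down, beside 3.62% and 2.38% of all genes. Of those 9, named after their values were seen, JUN was at 17.9 FPKM with C36 and 13.2 FPKM with vehicle (0.42, adjusted p = 0.00470), and ATF3 at 10.5 and 6.97 FPKM (0.57, adjusted p = 0.00617). FOS did not pass (11.9 and 11.5 FPKM, adjusted p = 0.553). The count fell to 3 without C36 replicate 2 or 3 or vehicle replicate 3, to 4 without vehicle replicate 2 and to 6 without C36 replicate 1. It was 16 in the fit of all 36 libraries, where 15.5% of all genes passed. In H820 5 list genes rose and 0 fell with C36, beside 1.56% and 1.29% of all genes. There 8 passed in the fit of all 36 libraries, beside 3.95% of all genes. In H3255 2 rose and 2 fell, beside 0.164% and 0.141% of all genes, and 1 or 2 were called when any 1 library of either group was left out. In H1975 0 of 37 passed in limma, beside 0.0423% of all genes higher and 0.190% lower, with 12 at an unadjusted p under 0.05. There 2 were called without vehicle replicate 1 and 3 in the fit of all 36 libraries, where 1.85% of all genes passed.

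EGR4, a further member of the EGR family that passed no filter, averaged 0.277 FPKM with MinE07, 0.526 FPKM with C36 and 0.176 FPKM with vehicle in A549. The 3 groups did not overlap and stood in the same order as for EGR1. Of the tested genes in A549, 10.1% lay apart below C36 with MinE07, 11.3% above vehicle with MinE07 and 17.4% above vehicle with C36. In limma without the filter C36 differed from vehicle (adjusted p = 0.0255, where 0.389% of genes passed). MinE07 passed against neither C36 (adjusted p = 0.337) nor vehicle (adjusted p = 0.515). In H3255 and H1975 the EGR4 groups overlapped, with means of 0.145, 0.159 and 0.124 FPKM and of 0.148, 0.125 and 0.119 FPKM for MinE07, C36 and vehicle. In H820 EGR4 was listed at 0 in 1 library of each aptamer, and the highest aptamer library (0.0196 FPKM) lay below the lowest of vehicle (0.0263 FPKM). There 9.18% of the tested genes lay apart below vehicle with MinE07 and 10.9% with C36. Neither EGR4 difference from vehicle passed without the filter (adjusted p = 0.357 and 0.426 in limma).

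Depth, computed from the steps between low FPKM values, ran from 0.590 to 1.38 of the median library, and both ends were vehicle libraries (H3255 and A549). Between 13236 and 14267 genes had over 1 FPKM per library. Of the epithelial markers 6 of 6 were at 1 FPKM or more in every line, while the lung lineage markers reached that level for 3 of 3 genes in H3255, 1 of 3 (NKX2-1) in H1975 and H820, and 0 of 3 in A549. The endothelial markers and the leukocyte markers PTPRC and CD3E were below 1 FPKM in every line, and CD14 averaged up to 1.76 FPKM. Of the fibroblast markers, LUM averaged 41.1 FPKM in H820, and COL1A1 2.74 FPKM in H3255 and 5.57 FPKM in H1975.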

How the data were processed

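RNA of 36 libraries (12 groups of 3) was sequenced as pairs of 100 bases after a stranded poly-A library preparation, per the labels' protocols. The authors deposited 1 FPKM value per gene and library. HISAT2 and Cuffdiff and the builds GRCh38.p12 and hg38 are named in the submitters' processing notes, with no version or role; the sources used here give neither annotation nor strand setting. Of 68271 entries, 1874 without a name and 31 with repeated names were left out (at most 0.00494% of summed FPKM), and files were joined by gene name. Summed FPKM ran from 362928 to 449811. No counts are given, so no counting interval could be computed; relative depth spanned 2.35-fold.

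Values were analysed as log2(FPKM + 0.5), which understates the change of low genes. A gene was tested if its mean over the libraries fitted was at least 1 FPKM. For each line, limma 3.58.1 (trend and robust, with statmod 1.5.0 in R 4.3.3) took its 9 libraries as 3 groups, and vehicle levels and differences between lines came from 1 fit of 36 libraries and 12 groups. Calls are two-sided at a Benjamini-Hochberg adjusted p under 0.05 over all genes tested in a comparison. P-values rest on the spread between libraries within groups, pooled over the groups of a fit and moderated by limma over all genes. The series record calls the 3 libraries of a group independent experiments. The script was tested on simulated data. Tables and plots used Python 3.11.15, pandas 2.3.3, numpy 2.4.6 and matplotlib 3.10.9.

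The members and gene lists were chosen with earlier results of these data known. Genes named are all members, of each list the called gene with the largest change between MinE07 and C36 in each direction and line, and the 5 genes most like EGR1; others are said to be chosen after their values were seen, apart from STAT6, EGR4 and the markers. The alternatives were pseudocounts of 0.1 and 1, no filter, medians of ratios as scaling, further copies of a gene name left out, a replicate block, 1 fit of all 36 libraries and each library left out in turn. Promoter windows are from RefSeq (GRCh38.p14), and gene positions from GENCODE release 29 (GRCh38).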

Additional observations from a re-analysis of the deposited data

Results flagged for a closer look

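The change of NAB2 between MinE07 and C36 differed between H3255 and H1975 by -0.304373 on the log2(FPKM + 0.5) scale, and between H3255 and A549 by -0.370332, by a test of the difference itself. The NAB2 means with MinE07 and C36 were 22.8 and 31.4 FPKM in H3255, 14.1 and 15.6 FPKM in H1975, and 5.85 and 6.22 FPKM in A549. For NAB1 the change differed between H1975 and A549 by -0.217605 (adjusted p = 0.0387 in limma). Its means with MinE07 and C36 were 2.00 and 2.15 FPKM in H1975 and 11.1 and 10.1 FPKM in A549. Within either line NAB1 passed no test between MinE07 and C36. The call between lines was lost under 11 alternatives, among them no filter (adjusted p = 0.0766) and the medians of ratios (0.0657). The groups held 3 libraries each, so single libraries were not screened for outlying values.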

How the results depend on the processing

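Under the alternatives run, no called difference changed sign; 5 of 90 differences did, all NAB1 or NAB2 differences of at most 0.04 in size that had not passed (adjusted p at least 0.654). For EGR1, 152 of 156 alternative values moved by less than the spread between replicates, but most of them could not have moved further. No filter, the replicate block, further copies left out and the fit of all 36 libraries leave the EGR1 differences unchanged. Leaving out 1 of 3 libraries cannot move a difference beyond that spread. Only the pseudocounts and the medians of ratios could. The exceptions were the pseudocounts of 0.1 and 1 in H820. They gave -0.965363 and -0.634491 for MinE07 minus C36, and -1.0264 and -0.67947 for MinE07 minus vehicle. For the other members, 325 of 336 tests between treatments and 205 of 216 of differences between lines kept their side of the threshold. So did 195 of 198 tests of vehicle levels, those of EGR1 included. The 11 calls lost between lines were all of the NAB1 difference between H1975 and A549. The 6 calls lost between treatments were all of NAB2 in H820 for MinE07 minus vehicle. Without the filter on low genes, 2 members other than EGR1 were called in H3255 for MinE07 minus C36 (1 with it, the gain being EGR3), 1 in H1975 for MinE07 minus vehicle (0 with it) and 0 in H820 for MinE07 minus vehicle (1 with it); more genes are adjusted over in that fit. In the fit of all 36 libraries, 1 was called in H820 for MinE07 minus C36 and 1 in A549 for C36 minus vehicle (both 0 otherwise). Leaving out single libraries gave 0 to 1 called members in H1975 (MinE07 minus C36) and 0 to 1 in H820 (MinE07 minus vehicle).

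Called list genes for C36 minus vehicle were 1 without the filter and 1 to 2 with a library left out in H3255 (4 reported), 3 in the fit of all 36 libraries and 0 to 2 with a library left out in H1975 (0 reported), 8 in that fit in H820 (5 reported), and 4 without the filter, 16 in that fit and 3 to 12 with a library left out in A549 (10 reported). In A549, MinE07 minus C36 gave 1 in that fit (0 reported), and MinE07 minus vehicle gave 1 with the pseudocount 0.1, 1 with further copies left out, 6 in that fit and 0 to 3 with a library left out (0 reported). Of all genes, that fit called 1.85% in H1975, 3.95% in H820 and 15.5% in A549 for C36 minus vehicle. In A549 it called 1.58% for MinE07 minus C36 and 4.52% for MinE07 minus vehicle. Without the filter, C36 minus vehicle called 0.0158% of all genes in H3255 and 0.389% in A549. The cause of these moves was not tested. The medians of ratios shifted the median of all genes by at most 0.0245.

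Libraries share replicate numbers across treatments. Same-numbered libraries correlated above 0.1 in 3 of 9 pairs in H3255, 1 of 9 in H1975, 4 of 9 in H820 and 0 of 9 in A549. A library correlated best with its own number in 5, 2, 10 and 2 of 18 cases. The numbers were not taken to pair the libraries in any line, though H820 had the highest of both counts. Correlations in H820 ran from -0.0565 to 0.189 for the same number and from -0.166 to 0.137 for other numbers. With the replicate number as a block, 0 members other than EGR1 were called in H820 for MinE07 minus vehicle (NAB2, adjusted p = 0.0528), 2 list genes in H3255 and 5 in A549 for C36 minus vehicle, and the NAB1 difference between H1975 and A549 had an adjusted p of 0.0523. EGR2 and EGR3 lie where FPKM without counts sets no limit on counting error.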
